A study of Mus musculus with 8 samples.

Results

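The genes described are 40 cell cycle genes in resting T cells, 17 of DNA replication and 23 of mitosis, of 55573 genes in a table of RNA sequencing counts. The 40 were taken by symbol from a list of genes known to be induced when cells divide, and each symbol matched 1 gene. The division into these 2 classes was made here. The libraries were made from naive CD8+ T cells, cytotoxic lymphocytes that have not yet been activated by antigen, sorted from the spleen and lymph nodes of male C57BL/6 mice after magnetic enrichment. There were 3 WT libraries, from mice of 7 weeks (replicate 1) and 8 weeks (replicates 2 and 3). There were 5 Furin KO libraries, from mice of 7 weeks (replicate 1) and 8 weeks (replicates 2 to 5). The labels do not state the Furin allele, the cells in which it was removed or whether each library came from its own mouse, and any p-value here reflects only how far these libraries vary, in part perhaps for technical reasons.

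A cell that divides passes through 2 programmes of transcription. At the entry into S phase the E2F transcription factors raise the genes that load the replicative helicase onto DNA, make deoxynucleotides and copy the genome. Later, in G2, a second set is raised through B-MYB and FOXM1 and drives spindle assembly, chromosome separation and cytokinesis. In resting cells both sets are held down by retinoblastoma family proteins and by the DREAM complex, which binds E2F sites and a short element called the CHR (cell cycle homology region). Naive T cells are a classical example of such cells, since they persist for weeks without dividing.

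Total counts ran from 11308220 (Furin KO replicate 5) to 21040431 per library. Furin itself stood at 63.6 ± 5.71 CPM in WT (mean ± SD, n = 3; CPM are counts scaled to a common library size) and at 69.3 ± 11.8 CPM in Furin KO (n = 5), so the whole-gene count does not check the labels. The libraries were divided here into 3 sets of consecutive samples in title order, each with both genotypes. The first holds replicate 1 of each group, from the mice of 7 weeks. The second holds WT 2 with Furin KO 2 and 3, and the third WT 3 with Furin KO 4 and 5. Age sets the first apart. No label divides the second from the third or calls any set a batch. All 8 markers of naive CD8+ T cells were expressed, their sum running from 9454 to 11233 CPM over the 8 libraries. Markers of other cells were mixed. Rag1 and Rag2 of thymocytes, 4 genes of the red cell lineage and the B cell genes Ms4a1 and Cd22 had 0 counts in every library. The 4 thymocyte markers summed to between 9.81 and 13.7 CPM, nearly all of it Dntt, and the 5 B cell markers to at most 1.34 CPM. The 5 myeloid markers summed to between 5.32 and 14.8 CPM, mostly Cd68, with Csf1r at 0, and the 3 NK cell markers to between 33.6 and 51.5 CPM, nearly all Eomes, with Ncr1 at 0. The part of these cells in the values below was not tested. Among 7 markers of activated or memory cells, Gzmk and Klrg1 had 0 counts and Cd44 at most 2.72 CPM, while Il2rb was expressed at 181 to 237 CPM and Cxcr3 at 2.81 to 9.72 CPM.

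Resting cells kept more of the replication genes than of the mitosis genes by count. A gene is called expressed here at 1 CPM or more in all 8 libraries, which held for 81.7% of the 12500 genes tested. By that measure 11 of the 17 replication genes and 7 of the 23 mitosis genes were expressed. None of the replication genes and 6 of the mitosis genes were below 1 CPM in every library, and the other 6 and 10 lay between. Only 16 of the 17 and 16 of the 23 were tested, so the 81.7%, which covers tested genes alone, is not a like share. Rrm2, whose lowest library was at 1.001 CPM, lay just inside that limit and Tyms, with 0.879 CPM, just outside. Cdc6 and Ccne2 of the replication genes reached 1 CPM in 1 library each. The summed level of the 17 replication genes was 678 ± 6.49 CPM in WT (n = 3) and 654 ± 29.9 CPM in Furin KO (n = 5), and that of the 23 mitosis genes 89.0 ± 0.105 and 92.1 ± 6.45 CPM. Averaged over the libraries the replication sum was 7.29 times the mitosis sum. That ratio rests on the MCM genes, Pcna and Rrm1. Without these 8 the sum of the other 9 replication genes was 35.8 ± 5.35 CPM in WT and 36.1 ± 2.59 CPM in Furin KO. The sum of the 22 mitosis genes without Kif23 was 45.5 ± 2.64 and 47.0 ± 3.10 CPM. These last sums hold unlike numbers of genes, so they do not compare the level per gene. In bulk RNA a low level from a few cells with many transcripts and one from many cells with few cannot be told apart.

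**Figure D1:**
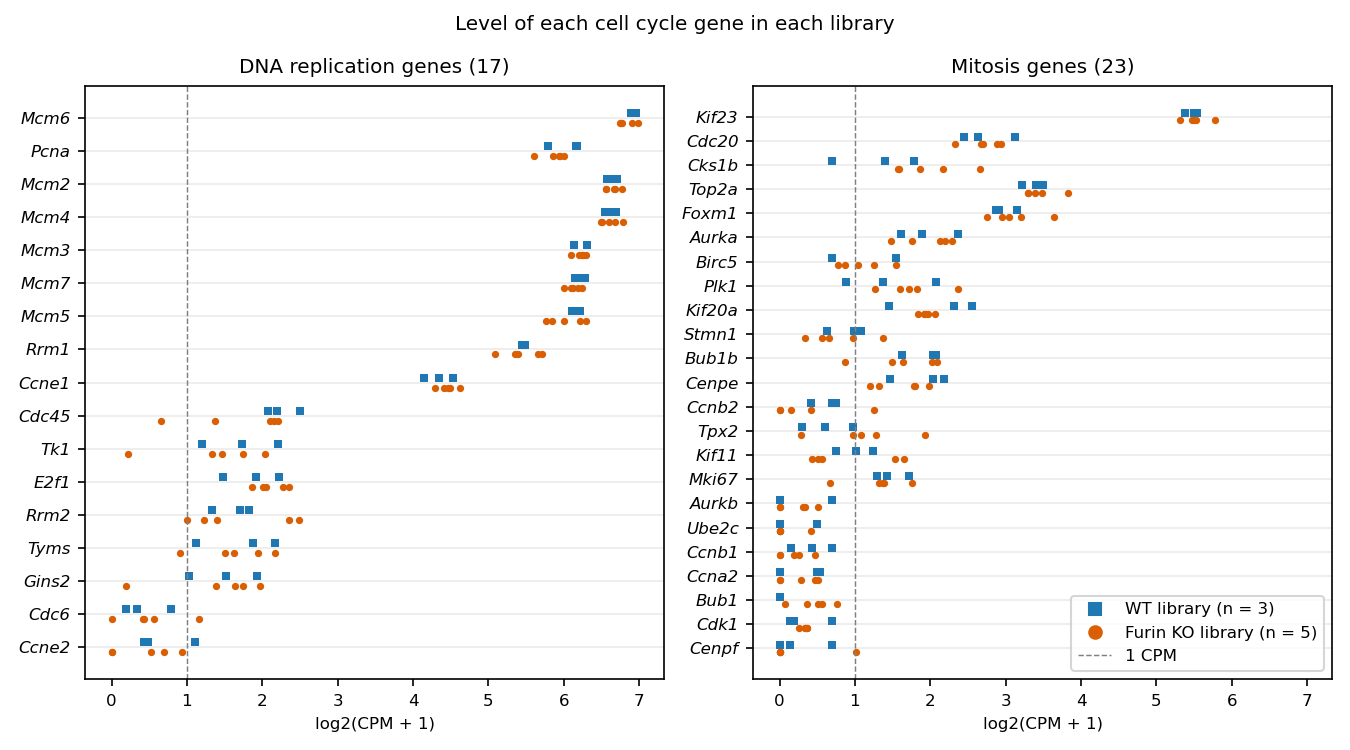
Level of each of the 40 genes in each library as log2(CPM + 1), with 3 WT libraries as squares and 5 Furin KO libraries as circles, genes ordered by mean level per kb. The 6 MCM genes, Pcna, Rrm1 and Ccne1 stand well to the right of 1 CPM, and Kif23 stands farthest right of the mitosis genes. Top2a, Foxm1 and Cdc20 also lie to the right of 1 CPM in every library, between 4.04 and 13.2 CPM.

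The kept part was led by the MCM helicase. Mcm2 to Mcm7 encode the subunits of the ring that unwinds DNA at the fork and that is loaded onto origins before S phase. All 6 were expressed in every library, between 53.4 and 125 CPM. Per kb of transcript, the scale on which genes can be compared with each other, they ran from 19.8 CPM per kb (Mcm5) to 40.01 CPM per kb (Mcm6), a range of 2.02-fold, and stood at percentiles 67.1 to 83.2 of the tested genes. Mcm6 (chromosome 1, 128331590 to 128359664, minus strand) stood at 118, 124 and 123 CPM in the WT libraries and at 108, 119, 125, 106 and 108 CPM in the Furin KO libraries, each in replicate order. The 3 WT libraries lay close together, and Furin KO replicates 2 and 3 lay among or above them while the other 3 Furin KO libraries were lower. Mcm4 stood at 103, 92.9 and 96.1 CPM in WT and at 89.3, 102, 109, 90 and 96.3 CPM in Furin KO, and the groups overlapped. Mcm2 was at 97.1, 103 and 94.1 CPM in WT and at 93.2, 102, 93.1, 101 and 108 CPM in Furin KO. Mcm3 was at 69.3, 78.2 and 69.7 CPM in WT and at 74.7, 75.6, 72.9, 77.9 and 67.7 CPM in Furin KO. At both genes the groups overlapped. Mcm7 ranged from 63.1 to 77.2 CPM over the 8 libraries and Mcm5 from 53.4 to 77.6 CPM.

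Pcna, the sliding clamp that holds DNA polymerase on its template, was close to Mcm6 per kb, at 39.98 CPM per kb. It stood at 70.7, 54.6 and 71.6 CPM in WT and at 60.7, 63.1, 57.1, 47.6 and 60.03 CPM in Furin KO. WT replicates 1 and 3 were the highest of all 8 libraries, but WT replicate 2 was the second lowest, so the groups overlapped. Ccne1, the cyclin E1 partner of CDK2 at the G1 to S transition, was at 10.2 CPM per kb, close to the median of tested genes of 10.1, and between 16.7 and 23.6 CPM. The 2 subunits of ribonucleotide reductase, the enzyme that makes deoxynucleotides, differed. Rrm1, its large subunit, was at 42.6, 43.1 and 43.6 CPM in WT and at 41.02, 51.5, 49.6, 39.7 and 33.1 CPM in Furin KO. Rrm2, the small subunit whose level follows S phase, was at 2.54, 2.24 and 1.52 CPM in WT and at 4.61, 1.63, 1.34, 1.001 and 4.13 CPM in Furin KO. Per kb that was 10.8 CPM for Rrm1 and 1.08 CPM for Rrm2, or 3.91 and 0.857 CPM by the merged length of all exons, by which Rrm1 falls under the median of tested genes.

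The other replication genes were low. Tyms and Tk1, which make thymidylate by synthesis and by salvage, reached at most 3.497 and 3.64 CPM. E2f1, a transcription factor that activates S phase genes, was between 1.78 and 4.12 CPM. Cdc45 and Gins2 (the latter sharing exon bases with Gse1 on the other strand), which join the MCM ring to form the active helicase, stood at 1.40 and 0.474 CPM per kb against 19.8 or more for each MCM gene. Cdc45 was at 3.23, 3.60 and 4.67 CPM in WT and at 3.30, 0.575, 3.47, 3.62 and 1.58 CPM in Furin KO, where replicate 2 had 12 counts. Cdc6, which loads the MCM ring, and Ccne2, cyclin E2, were the lowest of the class. Cdc6 had 2, 5 and 13 counts in WT and 7, 0, 23, 10 and 4 counts in Furin KO. Ccne2 had 5, 22 and 7 counts in WT and 0, 9, 17, 13 and 0 in Furin KO. Cdc6, Cdc45 and Gins2 were thus low beside the MCM genes in both genotypes. Other loading and activating genes were mixed. Orc3 was at 44.7, Cdt1 at 32.0 and Gins4 at 27.7 CPM per kb, the last 2 named after their values were seen. Orc1 and Mcm10 were below 1 CPM in every library.

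**Figure D2:**
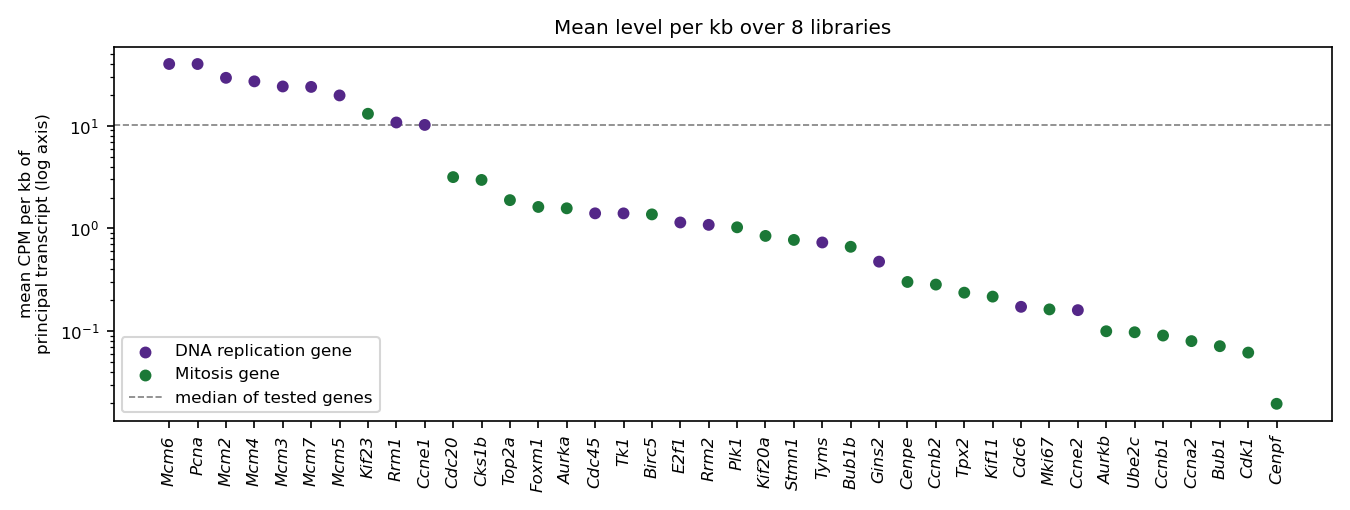
Mean level over 8 libraries in CPM per kb of principal transcript (log axis), replication genes in purple and mitosis genes in green, with the median of tested genes (10.1) as a dashed line. The 6 MCM genes and Pcna stand between 19.8 and 40.01, and every mitosis gene except Kif23 is at 3.16 or below.

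Of the mitosis genes, Kif23 was kept and the rest were low or near silence. Kif23 (chromosome 9, 61915905 to 61946774, minus strand) encodes MKLP1, a kinesin of the centralspindlin complex that acts in cytokinesis. It was at 40.5, 45.6 and 44.4 CPM in WT and at 45.1, 38.9, 44.1, 54.0 and 43.4 CPM in Furin KO, and held 48.9% of all counts of the 23 mitosis genes. At 13.1 CPM per kb it was the one mitosis gene above the median of tested genes, though not with the merged length of all its exons, by which it had 5.63 CPM per kb. Racgap1, which encodes the other subunit of centralspindlin, was likewise kept, at 125 ± 11.9 CPM in WT (n = 3) and 117 ± 10.6 CPM in Furin KO (n = 5).

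A second tier of mitosis genes was low in all 8 libraries. Top2a, the topoisomerase that untangles chromosomes, was at 10.3, 9.60 and 8.26 CPM in WT and at 10.2, 13.2, 8.87, 8.86 and 9.49 CPM in Furin KO. Foxm1, the transcription factor of the G2 programme, was at 7.89, 6.52 and 6.35 CPM in WT and at 11.4, 5.75, 7.26, 8.24 and 6.77 CPM in Furin KO. Cdc20, an activator of the anaphase-promoting complex, was at 5.22, 4.44 and 7.76 CPM in WT and at 6.64, 6.37, 5.50, 5.38 and 4.04 CPM in Furin KO. The groups overlapped at all 3 genes. Aurka, a spindle pole kinase, Kif20a, a cytokinesis kinesin that shares exon bases with Cdc23, and Cenpe, a kinetochore motor, completed the 7 expressed mitosis genes, with lowest libraries of 1.79, 1.74 and 1.29 CPM.

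The genes next in order had counts in all 8 libraries but did not reach 1 CPM in each of them. Mki67, which encodes the proliferation antigen Ki-67, was at 1.44, 2.30 and 1.69 CPM in WT and at 2.38, 1.58, 0.588, 1.62 and 1.49 CPM in Furin KO. Cks1b, a small subunit of cyclin-dependent kinase complexes, was at 1.65, 2.45 and 0.618 CPM in WT and at 3.49, 1.96, 5.34, 2.001 and 2.64 CPM in Furin KO. Furin KO replicates 1, 3 and 5 lay above all WT libraries, and replicates 2 and 4 within the WT range. Tpx2, which targets Aurora A to the spindle, was at 0.961, 0.522 and 0.225 CPM in WT and at 1.12, 2.83, 0.214, 1.43 and 0.967 CPM in Furin KO, where replicate 3 was the lowest of all 8 libraries. Stmn1, a protein that destabilises microtubules, reached at most 1.60 CPM, Birc5 (survivin) 1.93, Plk1 (polo-like kinase) 4.17, Bub1b (checkpoint kinase BUBR1) 3.25 and Kif11 (the spindle kinesin Eg5) 2.14 CPM.

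The engine of mitosis itself was almost absent. Cdk1 (chromosome 10, 69335146 to 69352938, minus strand), the kinase that drives entry into mitosis, had 2, 2 and 11 counts in WT and 4, 6, 5, 6 and 3 counts in Furin KO, at most 0.618 CPM. Its cyclin partners were low too: Ccnb1 reached at most 0.626 CPM, Ccna2 0.450 and Ccnb2 1.38. Aurkb, the kinase of the chromosomal passenger complex, reached 0.618 CPM, and Ube2c, the ubiquitin-conjugating enzyme of the anaphase-promoting complex, had counts in 2 libraries only. Cenpf, a kinetochore protein, had 9, 2 and 0 counts in WT and 21, 0, 0, 0 and 0 in Furin KO. All 40 genes had at least 2 libraries with a count, so none was at 0 throughout.

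The promoter sequences of the 2 classes were compared, which is a property of the genes and not a measurement in these cells. RefSeq promoter windows (GRCm38.p6; 250 bases before to 50 after the start) matched 31 of the 40 genes, with 32 windows. They were searched on both strands for E2F-type sites (TTTCCCGC or TTTGGCGC), the CHR (TTTGAA) and the CCAAT box (CCAAT). An E2F-type site was found in 5 of 15 replication windows (33.3%), in 0 of 17 mitosis windows and in 1.56% of 32851 windows of all genes. A CHR was found in 2 of 15 replication windows (13.3%), in 13 of 17 mitosis windows (76.5%) and in 17.9% of all windows. A CCAAT box was found in 66.7%, 94.1% and 37.4%. All 13 mitosis windows with a CHR also held a CCAAT box, as 6.95% of all windows did. A match is a run of letters, not a measured binding site.

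**Figure D3:**
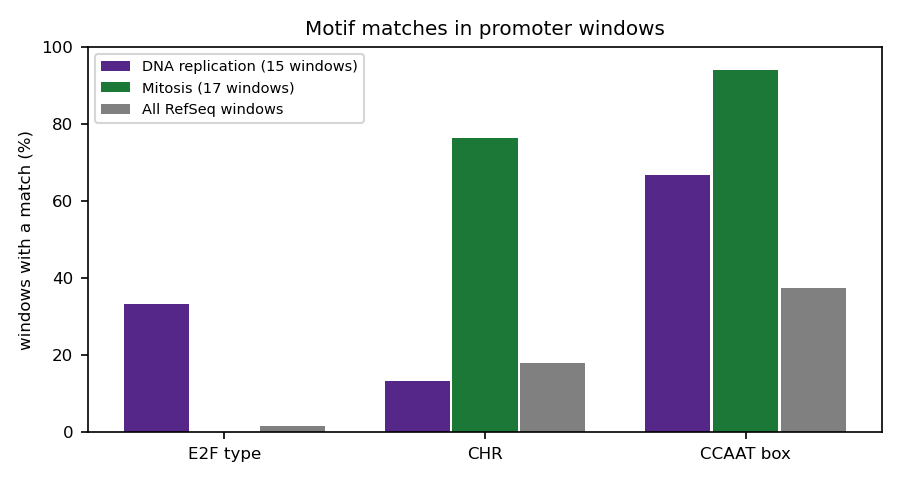
Share of promoter windows with at least 1 match, in percent, for 15 replication windows, 17 mitosis windows and 32851 windows of all genes. E2F-type matches lie in the replication class (33.3% against 1.56% of all windows) and CHR matches mostly in the mitosis class (76.5% against 17.9%).

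The windows printed here are those of the genes with the highest and the lowest level per kb in each class among genes with a window, with Bub1 added for the values below. They are Mcm6 (chr1:128359656-128359955, minus strand), Cdc6 (chr11:98907901-98908200, plus strand), Kif23 (chr9:61946750-61947049, minus strand), Cenpf (chr1:189688037-189688336, minus strand) and Bub1 (chr2:127831810-127832109, minus strand). Each is written 5′ to 3′ on the strand of the gene, and capitals mark E2F-type sites, CHR and CCAAT boxes on either strand.
Mcm6: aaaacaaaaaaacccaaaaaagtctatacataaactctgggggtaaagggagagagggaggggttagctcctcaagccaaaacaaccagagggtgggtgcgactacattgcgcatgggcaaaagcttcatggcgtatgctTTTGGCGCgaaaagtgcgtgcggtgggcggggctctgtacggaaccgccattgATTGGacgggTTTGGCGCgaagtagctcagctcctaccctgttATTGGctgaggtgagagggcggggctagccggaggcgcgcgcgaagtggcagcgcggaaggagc
Cdc6: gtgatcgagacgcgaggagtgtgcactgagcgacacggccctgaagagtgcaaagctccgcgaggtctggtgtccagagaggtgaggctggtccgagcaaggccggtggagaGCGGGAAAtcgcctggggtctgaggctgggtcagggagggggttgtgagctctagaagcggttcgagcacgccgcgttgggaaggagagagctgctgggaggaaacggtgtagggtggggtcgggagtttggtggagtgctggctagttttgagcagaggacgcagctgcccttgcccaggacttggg
Kif23: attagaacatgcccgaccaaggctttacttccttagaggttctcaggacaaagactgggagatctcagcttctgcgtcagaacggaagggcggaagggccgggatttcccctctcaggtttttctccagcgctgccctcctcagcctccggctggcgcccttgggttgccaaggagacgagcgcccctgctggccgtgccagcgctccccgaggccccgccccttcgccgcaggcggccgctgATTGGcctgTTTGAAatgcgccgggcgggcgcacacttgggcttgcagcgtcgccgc
Cenpf: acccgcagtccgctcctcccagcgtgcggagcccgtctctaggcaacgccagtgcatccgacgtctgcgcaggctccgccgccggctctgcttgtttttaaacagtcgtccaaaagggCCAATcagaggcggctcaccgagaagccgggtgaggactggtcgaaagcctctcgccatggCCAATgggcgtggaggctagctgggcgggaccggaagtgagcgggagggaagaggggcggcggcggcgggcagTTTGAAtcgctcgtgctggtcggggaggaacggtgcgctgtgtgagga
Bub1: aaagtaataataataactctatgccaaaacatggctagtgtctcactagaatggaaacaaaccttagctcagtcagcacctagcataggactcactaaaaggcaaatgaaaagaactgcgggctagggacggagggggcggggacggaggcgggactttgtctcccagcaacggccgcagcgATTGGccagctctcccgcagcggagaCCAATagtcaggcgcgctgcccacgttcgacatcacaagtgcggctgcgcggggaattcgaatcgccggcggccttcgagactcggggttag

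Mcm6, the highest replication gene, holds 2 E2F-type sites and 2 CCAAT boxes, and Cdc6, the lowest of those with a window, holds 1 E2F-type site. Kif23, which resting cells kept, and Cenpf, which was nearly absent, both hold a CHR that begins 2 bases after the start and at least 1 CCAAT box. Whether any of these 3 motifs goes with the level of a gene was not tested. Bub1 holds 2 CCAAT boxes and none of the other letters searched.

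No difference between the genotypes passed the test at any of these genes. The quasi-likelihood test of edgeR, adjusted by Benjamini-Hochberg, called 0 of the 32 genes tested at an adjusted p under 0.05, where 0.032% of all 12500 tested genes did. None had an unadjusted p under 0.05, which 3.21% of all tested genes had, and in none of the 32 did the groups fail to overlap, which 2.90% of all tested genes did. Among 16 tested replication genes 6 log2 fold changes were above 0 and 10 below, with a median of -0.08. Among 16 tested mitosis genes 8 were above and 8 below, with a median of -0.02, and the median over all tested genes was 0.00. DESeq2 gave 33 of the 40 genes an adjusted p and called 0, with Bub1 alone at an unadjusted p under 0.05.

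**Figure D4:**
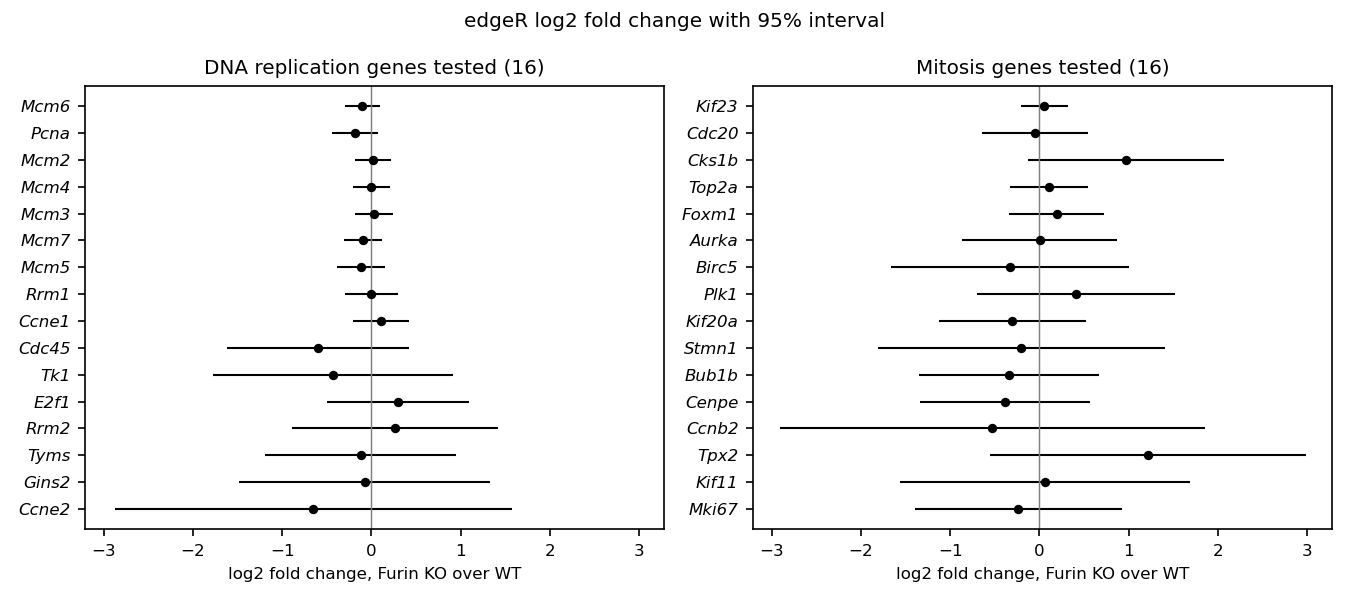
edgeR log2 fold change, Furin KO over WT, with 95% interval for the 16 replication and 16 mitosis genes tested, ordered by level. Every interval includes 0, and the intervals of the MCM genes lie between -0.38 and 0.24 while those of Ccne2, Ccnb2, Tpx2, Kif11 and Stmn1 span more than 3 log2 units.

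How large a difference the data leave room for depended on the level. For the 6 MCM genes the log2 fold changes lay between -0.12 and 0.03, and their 95% intervals between -0.38 and 0.24. Mcm6 had -0.10 (SE 0.09, interval -0.30 to 0.10) and Pcna -0.19 (SE 0.12, interval -0.44 to 0.07), with an edgeR adjusted p of 0.9998 for each. Mcm2 had 0.02, Mcm3 0.03 and Mcm4 0.00, each with an interval within 0.24 of 0. Kif23 had 0.05 (interval -0.21 to 0.31), Top2a 0.11 (-0.32 to 0.55), Foxm1 0.19 (-0.34 to 0.73) and Cdc20 -0.05 (-0.64 to 0.54). For the low genes the intervals were wide. Cks1b, with the lowest unadjusted p of the 32 tested, had 0.97 (interval -0.13 to 2.07, edgeR adjusted p = 0.9998). Tpx2 had 1.22 (interval -0.55 to 2.98), Cdc45 -0.60 (-1.62 to 0.42) and Cenpe -0.39 (-1.34 to 0.56). A two-sided exact permutation of the library labels, on log2(CPM + 1), gave these 13 genes p between 0.125 and 0.982, and 0.696 or more after Benjamini-Hochberg adjustment over the 13, where the smallest p the design allows is 0.0179.

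8 genes had too few counts for the test: Cdc6, Aurkb, Ube2c, Ccnb1, Ccna2, Bub1, Cdk1 and Cenpf. Bub1 (chromosome 2, 127801122 to 127831865, minus strand), a kinase of the spindle checkpoint, was the one gene of the 40 whose groups did not overlap. Of all 12500 tested genes 2.9% did not overlap either, against 0 of the 32 tested here. Bub1 was not tested, and the share among genes of as few counts was not computed. Bub1 had 0 counts in each WT library and 1, 6, 9, 9 and 8 counts in the Furin KO libraries. That is 33 of 92776744 counts against 0 of 51544003. Set against a floor of 3 counts over the WT group, this is 6.11-fold higher per sequenced count. The floor covers counting error only, and Bub1 varied more than that (chi-square per degree of freedom 5.01, about 1 where only counting error acts). Permuting the library labels (exact, two-sided, log2 scale) gave a p of 0.0357, not adjusted over the 40 genes. Bub1 was picked out because its groups did not overlap, which by itself makes this p small and this fold high, so neither adds separate support. In an edgeR fit without the filter on low counts its p was 0.0109 and its adjusted p 0.868, so it did not pass. At 0.703 CPM or less it lay below the level that counts as expressed here, and Bub1b, the paralogous checkpoint gene, was at 2.79 ± 0.614 CPM in WT (n = 3) and 2.21 ± 0.984 CPM in Furin KO (n = 5).

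The spread between libraries was set beside that of other genes. For each gene a chi-square of its 8 counts against equal CPM was divided by its 7 degrees of freedom, which gives about 1 where only counting error acts. Mcm3 had 3.60 and Mcm2 4.72, against medians of 13.9 and 15.7 over tested genes with a total count within 1.5-fold. Mcm4, Mcm6 and Mcm7 also lay below the medians of like genes, at 9.16, 9.84 and 5.59 against 15.7, 17.2 and 13.6. Pcna had 19.4 (median of like genes 12.7) and Mcm5 19.5 (13.1), above those medians. Rrm1 had 12.1 (11.4), near the middle of like genes at percentile 53.8. Among low genes Cks1b had 14.4, Rrm2 13.9 and Tpx2 13.2, where like genes had medians of 6.94, 6.90 and 5.96. Other low genes lay below genes of like count, such as E2f1 at 2.96 (7.06) and Mki67 at 3.54 (6.41). The 11 tested genes of the list with 300 to 1000 counts had a median of 5.87, against 7.28 for all tested genes of that range. For the 7 with 100 to 300 counts it was 8.15, against 6.12. The counts of low genes therefore varied more than counting error, in these genes and in others of the same level.

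The comparison was also made within the library sets, where each set has 1 WT library and values are given with no test. There the sum of the 6 MCM genes was 486 CPM in Furin KO and 530.2 in WT in the first set (n = 1 and 1), 542 and 541 in the second (n = 2 and 1) and 508 and 528 in the third (n = 2 and 1). The 23 mitosis genes summed to 96.0 and 88.9 CPM, 88.7 and 88.9 CPM, and 93.6 and 89.1 CPM in the same order. Pcna was lower in Furin KO in the first set (60.7 against 70.7 CPM) and the third (53.8 against 71.6) and higher in the second (60.1 against 54.6). Cks1b was higher in Furin KO in all 3 sets, at 3.49 against 1.65, 3.65 against 2.45 and 2.32 against 0.618 CPM. With the set as a factor its edgeR p was 0.0415 and its adjusted p 0.855.

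**Figure D5:**
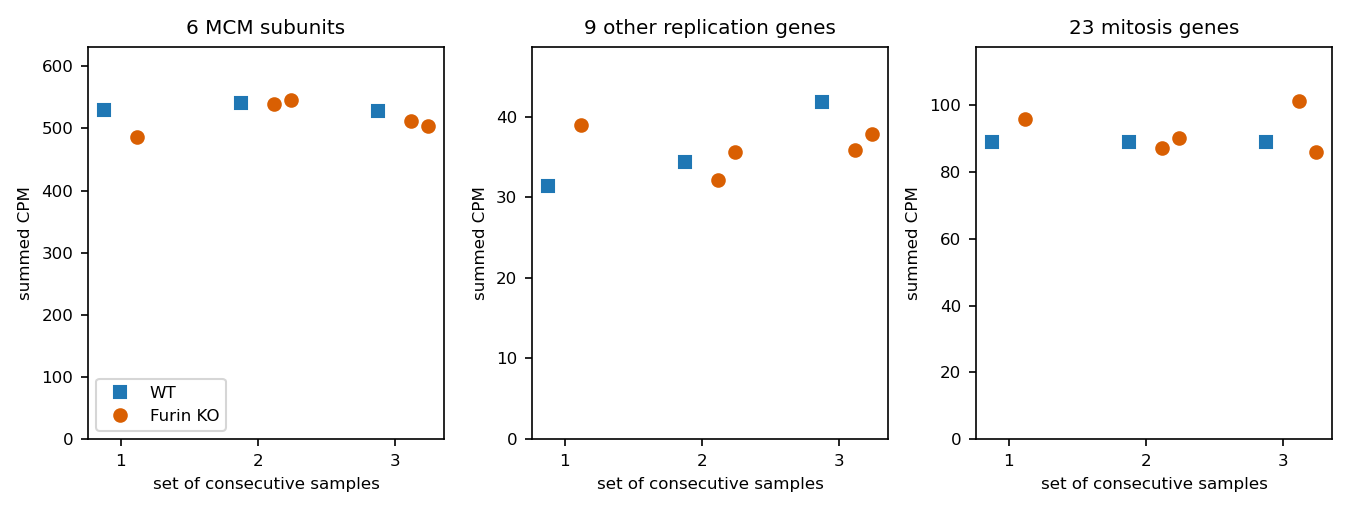
Summed CPM per library of the 6 MCM genes, of the 9 replication genes other than MCM genes, Pcna and Rrm1, and of the 23 mitosis genes, by set of consecutive samples, with WT as squares and Furin KO as circles. MCM sums lie between 486 and 546, and mitosis sums between 85.9 and 101.

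The levels of the wider machinery were read from further lists. Of 40 further replication genes, such as origin recognition, polymerase, clamp loader and RPA genes, 37 (92.5%) were expressed in every library, and Orc1 and Mcm10 were below 1 CPM throughout. Orc3 of the origin recognition complex was at 44.7 CPM per kb and Pola2 of DNA polymerase alpha at 40.8. 0 of the 38 tested passed. Rfc5, a clamp loader subunit, had the lowest unadjusted p (log2 fold change 0.43, interval 0.11 to 0.76, edgeR adjusted p = 0.9998), and Rfc3, another, had -0.42 (interval -0.87 to 0.02). Of 38 further mitosis genes 20 (52.6%) were expressed, led by Smc4, a condensin subunit that also acts in interphase, at 155 CPM per kb and Racgap1 at 39.2 CPM per kb. 0 of the 29 tested passed. The groups did not overlap at 2 of these 29, against 2.90% of all tested genes: at Ckap2l, a spindle protein (log2 fold change -1.33, interval -2.75 to 0.09), and at Pttg1, securin (0.17, interval -0.08 to 0.42), which is named after its values were seen.

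The genes that hold cells in G1 or release them ranged from absent to high. Of 15 G1 cyclins, kinases and inhibitors 10 (66.7%) were expressed, and 8 stood above the median of tested genes per kb. All 10 were among the 11 tested, and 0 of these 11 passed. Of all 12500 tested genes 81.7% were expressed. Cdk4 was at 84.3 CPM per kb and its partner Ccnd3, cyclin D3, at 79.9. Cdkn2d, the CDK4 inhibitor p19, had 107 ± 7.63 CPM in Furin KO (n = 5) and 91.9 ± 11.4 CPM in WT (n = 3) (log2 fold change 0.22, interval -0.0050 to 0.44, edgeR adjusted p = 0.9998). Cdkn1b, the inhibitor p27 known for its role in quiescence and named after its values were seen, was at 181 ± 27.1 and 191 ± 18.7 CPM, while Cdkn1a, p21, had 10 counts in all. Of 19 genes of the RB, E2F and DREAM group 17 (89.5%) were expressed, 8 stood above that median and 0 of 17 tested passed. E2f4, the repressive E2F of the DREAM complex, was the highest at 93.0 CPM per kb, and Rbbp4, a histone-binding subunit, was at 36.2, whereas E2f7 and E2f8 reached at most 0.574 and 1.10 CPM. E2f2 had a log2 fold change of 0.33 (interval -0.09 to 0.75) and E2f5 0.28 (interval -0.13 to 0.69).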

How the data were processed

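RNA was measured in 8 libraries of naive CD8+ T cells. The authors deposited whole-number raw counts per Ensembl gene, with 1 column per sample, matched here by title. Per the submitters' processing notes, FastQC, Trim Galore, STAR and DESeq2 1.24.0 were used with the build GRCm38. Not given in the sources used here are the counting program, its annotation and its strand setting. Exons of another gene on the opposite strand overlap Gins2 (2758 bases), Kif20a (1271), Ccne2 (609), Ube2c (592), Ccna2 (510), Mcm7, Cdc45, Plk1, Tk1 and Cdc20, and Pcna, Tyms, Ccnb1 and Ccnb2 have processed pseudogenes, so their counts are uncertain.

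Symbols, coordinates and transcript lengths came from GENCODE M21 (GRCm38), which matched 55480 of 55573 IDs. Levels per kb use the APPRIS principal transcript. By merged exon length, tried after the data were seen, Mcm5 and Aurka replace Mcm2 and Top2a among the 5 highest genes of their classes. The counts were fitted in R 4.3.3 with edgeR 4.0.16 and limma 3.58.1: TMM factors, filterByExpr with genotype as group, and a two-sided quasi-likelihood test over 12500 genes. CPM use TMM-scaled library sizes. SEs are the log2 fold change over the root of its F statistic. Library totals of 11308220 to 21040431 limit the low genes, and the expressed genes vary between libraries beyond counting error. Floors cover counting error only. No 2 libraries agreed within counting noise (chi-square per degree of freedom at least 10.9). It ran from 10.9 to 16.9 for pairs within a library set and from 16.6 to 39.8 for pairs between sets. The reported fit has no term for the set. Replicate numbers follow accession order and pair nothing.

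The 40 genes, the other lists and the library sets were chosen with earlier results of these data known. Fold changes are given for the 5 genes of highest level per kb and the 3 of lowest unadjusted p in each class, 13 in all, and the 2 and 2 such genes of each further list are named. Other named genes were chosen after their values were seen. Tested on simulated counts for Furin KO against WT over 12500 genes, with 200 genes above 1 CPM changed, the fit recovered 57.4% of genes changed 1.5-fold, 79.7% changed 2-fold and 95.6% changed 4-fold, with 1 false call of 156. These shares are pooled over levels and cover no changed gene below 1 CPM. They do not give the recovery for the low genes of the list. With 156 calls the limit on p is also looser than with the 4 calls of the reported fit. In that fit the SE was 0.52 for Cks1b and 0.84 for Tpx2, against 0.09 for Mcm6. Alternatives were RLE factors, library size alone, no low-count filter, a CPM of 1 in 3 libraries, DESeq2 1.42.0, limma-voom, age or set as a factor, the 8-week libraries alone and each library left out.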

Additional observations from a re-analysis of the deposited data

Results flagged for a closer look

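Values of the 40 genes, 3 sums and the total count were examined for a library far from the others of the Furin KO group by Dixon's gap test. By chance about 2.2 of 44 values would be so marked, and 5 were. The 2.2 is no close guide for genes of few counts. Where the other 4 libraries had 0 counts, any count at all was marked. Ccnb2 in Furin KO replicate 4 was at 1.38 CPM (29 counts) against 0 to 0.335 in the other 4. Furin KO replicate 1 had Cenpf at 1.02 CPM (21 counts), and Furin KO replicate 2 had Ube2c at 0.335 CPM (7 counts), where the other 4 libraries had 0 counts of each. Furin KO replicate 1 had Cdk1 at 0.194 CPM (4 counts) against 0.264 to 0.287. The total count of Furin KO replicate 5 was 11308220 against 18641969 to 21040431.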

How the results depend on the processing

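0 of the genes tested passed in the reported fit (32 of the 40) and in the 17 alternatives (29 to 34, and all 40 without a filter on low counts), with a lowest adjusted p of 0.855. An unadjusted p under 0.05 was reached by Bub1 without that filter and in DESeq2, by Cks1b with the set as a factor, and by Cks1b and Pcna without WT replicate 2. Over all genes 4 passed in the reported fit, 38 without the filter, 14 in DESeq2 and 12 with the set as a factor. Leaving out 1 library gave 3 to 5. 12 mitosis genes were expressed at a limit of 0.5 CPM and 4 at 2 CPM, against 7 at 1 CPM. By merged exon length 8 replication genes in place of 9, and 0 mitosis genes in place of 1, stood above the median level per kb.

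The sign of the log2 fold change was the same in 205 of 221 values of the 13 genes, and 7 genes never changed sign. Mcm4 turned below 0 with library size alone (-0.0012), limma-voom (-0.00077), age (-0.0038) or set (-0.0068) as a factor, and lay between -0.043 and 0.046 with 1 library left out. Mcm3 had -0.0071 in the 8-week libraries and Cdc20 0.012 in limma-voom. With 1 library left out Mcm2 lay between -0.014 and 0.055, Kif23 between -0.018 and 0.10, Cdc20 between -0.21 and 0.22 and Top2a between -0.0030 and 0.19. Cks1b had 1.46 without WT replicate 2 and 0.59 without WT replicate 3. The cause was not tested. No paired analysis was possible because the labels give no replicate numbers by which to pair libraries, and the fit with the set as a factor compared the genotypes within sets. 8 genes had too few counts to be tested.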
